A study of Homo sapiens with 18 samples.

Results

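Genes for 10 receptor chains through which myeloid cytokines act were followed in HL-60 and MOLM-13, human cell lines that each come from a single case of acute myeloid leukaemia. The genes were taken by symbol: CSF2RA, CSF2RB, IL3RA, CSF3R, IL6R, IL10RA, IFNAR1, IFNAR2, IFNGR1 and IFNGR2. All 10 were listed in both lines, among 17110 genes for HL-60 and 17475 for MOLM-13, and all 10 passed the filter on low values. The cells had been treated for 48 h with DMSO as the solvent control, with decitabine (DAC) or with NTX-301. There were 3 replicates per line and treatment, so 6 groups and 18 samples. Cells of all groups grew in RPMI1640 with fetal bovine serum, and no cytokine is named in the labels. DAC is a cytidine analogue that is built into DNA and traps DNA methyltransferases, and NTX-301 is the study's other compound, given by its code name. The stated dose is 30 nM in the HL-60 groups and 15 nM in the MOLM-13 groups, without saying whether this holds for both drugs or for DAC alone. Line and concentration therefore cannot be told apart, nor can drug and dose.

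These receptors let a blood cell sense the signals that set its growth, maturation and state of defence. A cytokine brings its receptor chains together, the Janus kinases (JAKs) bound to the chains switch on, and these activate STAT transcription factors. GM-CSF and IL-3 each bind an alpha chain of their own (CSF2RA and IL3RA) and share the signalling beta chain CSF2RB, which matters for the survival and growth of myeloid precursors. CSF3R is the G-CSF receptor, which drives the making of neutrophils, IL6R binds IL-6 and signals through the partner chain IL6ST, and IL10RA pairs with IL10RB to pass on a signal that calms macrophages. Type I interferons bind IFNAR1 and IFNAR2, and interferon gamma binds IFNGR1 with IFNGR2. IL3RA is also known as CD123, a surface marker of many acute myeloid leukaemia blasts.

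CSF2RB rose with both drugs in both lines, and rose more in HL-60. IL6R fell with both drugs in both lines, and IFNAR2 rose with both in both. CSF3R rose and IL3RA fell in MOLM-13, where neither gene passed the test in HL-60. IL10RA rose in MOLM-13 with either drug, and in HL-60 with NTX-301. IFNAR1 rose with DAC in both lines, and IFNGR1 fell with NTX-301 in both lines and with DAC in MOLM-13. Some of these calls were lost under another scaling or without a single sample, as given below. They were CSF2RB with NTX-301 in MOLM-13, IL6R and IFNGR1 with DAC in MOLM-13, and IFNAR1 with DAC in both lines. The difference between lines in the CSF2RB rise with DAC also lost its call without some single samples. For IL3RA the difference between lines lost its call under quantile normalization with each drug. The largest change among these 10 genes was 0.58 on the log2 scale, a 1.499-fold rise of CSF2RB with NTX-301 in HL-60.

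The reference sequence just upstream of the genes that moved differently between the lines is shown here for its content of CG dinucleotides, the sites at which DNA methyltransferases act. Methylation was not measured. Each window of 300 bases spans an annotated RefSeq start and lies mostly before it (GRCh38.p14, 5' to 3' on the gene's strand), with every CG in capitals. IL10RA and CSF3R are shown because both rose in MOLM-13, IL3RA because it fell there, and IL6R because it fell in both lines. The windows are IL10RA at chr11:117989695-117989994 (+ strand), the upstream and downstream starts of CSF3R at chr1:36483265-36483564 and chr1:36482864-36483163 (both - strand), IL6R at chr1:154405093-154405392 (+ strand) and IL3RA at chrX:1336535-1336834 (+ strand).
IL10RA: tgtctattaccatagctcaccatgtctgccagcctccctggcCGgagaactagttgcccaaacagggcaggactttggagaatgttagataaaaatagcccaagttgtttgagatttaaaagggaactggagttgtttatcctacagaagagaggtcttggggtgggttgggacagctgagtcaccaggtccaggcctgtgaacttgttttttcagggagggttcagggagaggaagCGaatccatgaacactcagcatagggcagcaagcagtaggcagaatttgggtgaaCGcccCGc
CSF3R, upstream start: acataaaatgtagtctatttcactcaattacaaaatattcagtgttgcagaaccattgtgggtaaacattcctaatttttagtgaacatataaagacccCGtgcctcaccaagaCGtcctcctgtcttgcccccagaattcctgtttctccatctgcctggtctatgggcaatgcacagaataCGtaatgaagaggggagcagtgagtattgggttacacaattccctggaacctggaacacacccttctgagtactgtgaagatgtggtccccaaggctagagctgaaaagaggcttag
CSF3R, downstream start: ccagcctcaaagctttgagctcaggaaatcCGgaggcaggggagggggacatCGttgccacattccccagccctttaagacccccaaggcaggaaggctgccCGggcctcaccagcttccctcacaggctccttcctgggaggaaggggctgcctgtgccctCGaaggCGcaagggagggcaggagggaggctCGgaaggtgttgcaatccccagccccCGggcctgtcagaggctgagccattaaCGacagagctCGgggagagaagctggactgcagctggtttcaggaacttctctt
IL6R: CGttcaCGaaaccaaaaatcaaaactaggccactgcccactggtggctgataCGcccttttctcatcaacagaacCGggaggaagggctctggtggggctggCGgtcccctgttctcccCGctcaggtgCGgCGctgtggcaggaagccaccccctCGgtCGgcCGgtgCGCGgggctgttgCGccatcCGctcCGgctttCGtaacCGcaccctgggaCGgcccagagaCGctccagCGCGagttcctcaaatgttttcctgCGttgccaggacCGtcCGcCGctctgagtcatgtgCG
IL3RA: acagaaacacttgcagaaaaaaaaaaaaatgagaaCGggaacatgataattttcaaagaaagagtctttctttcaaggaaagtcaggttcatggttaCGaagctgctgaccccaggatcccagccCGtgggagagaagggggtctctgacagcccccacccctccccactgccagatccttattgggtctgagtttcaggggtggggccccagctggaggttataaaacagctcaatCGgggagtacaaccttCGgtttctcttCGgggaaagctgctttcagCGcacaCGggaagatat

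The IL10RA window holds 4 CG dinucleotides, the CSF3R windows 3 and 9, and the IL3RA window 8, while the IL6R window holds 27. Over the 35116 promoter windows in the RefSeq table the median was 14, with quartiles of 4 and 28. The other receptor windows held 6 (CSF2RA), 29 and 25 (IFNGR1), 44 (IFNGR2) and 19 and 30 (IFNAR1), and no entry was found for CSF2RB or IFNAR2. CG content is given as a property of the windows, and its relation to the changes was not tested.

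Short motifs were also searched on both strands of all these receptor windows. GAGGAAG, a core bound by PU.1, occurred in the IL10RA, IL6R and downstream CSF3R windows, at positions -20, -172 and -111 from the start. It also occurred in the CSF2RA window (-63) and both IFNAR1 windows (41 and -229), and in 13.6% of all windows. TTGCNNAA, a core bound by C/EBP factors, occurred in the IL10RA window at -197, the upstream CSF3R window at -206 and the IL3RA window at -240, and also in 1 of the 2 IFNGR1 windows at -232, against 10.5% of all windows. The STAT motif TTCNNNGAA, which reads the same on both strands, occurred 3 times in the IL3RA window and in no other receptor window, against 7.66% of all windows. TATAAA stood at -29 in the IL3RA window and at -162 in the upstream CSF3R window, and 11.5% of all windows held it. These are matches of letters and not measured binding sites.

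Values below are the deposited log2 normalized expression values, and a change is a difference of group means on that scale. A gene is said to have risen or fallen where limma's adjusted p, taken over all genes tested in the line, was under 0.05. The labels say that cells were treated in triplicate but not that the cultures were separate, so p-values measure only the spread between these samples. Read depth was unknown, since the files hold no counts. Whether the scale allows for gene length is not given in the sources used here. Changes are therefore compared between groups, and a gene's place among other genes is given only as a description. Levels of the 2 lines are set side by side without a test because each line was normalized apart.

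In each line the labelled myeloid identity was checked against markers. HL-60 listed all 10 myeloid markers, among them MPO, ELANE and SPI1, and MOLM-13 listed 9 of them; FCER1G was not listed there. Among monocyte markers, ITGAM, CSF1R, FCGR1A and CD68 were listed in both lines, while CD14 was listed in neither. Among lymphoid markers, NKG7 was listed in both lines, CD79A in HL-60 and CD3D in MOLM-13, while CD3E and MS4A1 were listed in neither. HBB and HBA1, genes of erythroid cells, were listed in MOLM-13 only. Values of genes with low levels spread less over the samples than those of high genes. Across the 9 samples of HL-60, genes averaging under 5 had a median range of 0.0506, against 0.194 for genes averaging 10 to 12, and for MOLM-13 the figures were 0.078 and 0.239. Whether changes of low genes are understated was not tested.

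With DAC in HL-60, 4 of the 10 receptor genes passed the test, 3 higher and 1 lower, where 24.2% of all genes did (11.6% higher and 12.6% lower). With NTX-301 in HL-60, 5 passed, 3 higher and 2 lower, against 37.4% (18.3% and 19.2%). In MOLM-13, DAC changed 8 receptor genes, 5 higher and 3 lower, against 36.6% (15.4% and 21.2%), and NTX-301 changed 7, 4 higher and 3 lower, against 45.1% (20.3% and 24.8%). Both drugs were compared with the same DMSO samples, so their counts share those samples. Drug and DMSO groups did not overlap for 4 receptor genes with DAC and 6 with NTX-301 in HL-60, where this held for 38.5% and 47.2% of all genes, and for 9 and 8 in MOLM-13, against 47.9% and 55.8%. Nothing particular to these genes is read from the counts. The median change over the 10 genes in HL-60 was 0.0057 with DAC and 0.035 with NTX-301, and the MOLM-13 medians were 0.087 and 0.038, beside medians of 0.0006 to 0.0034 over all genes.

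**Figure D1:**
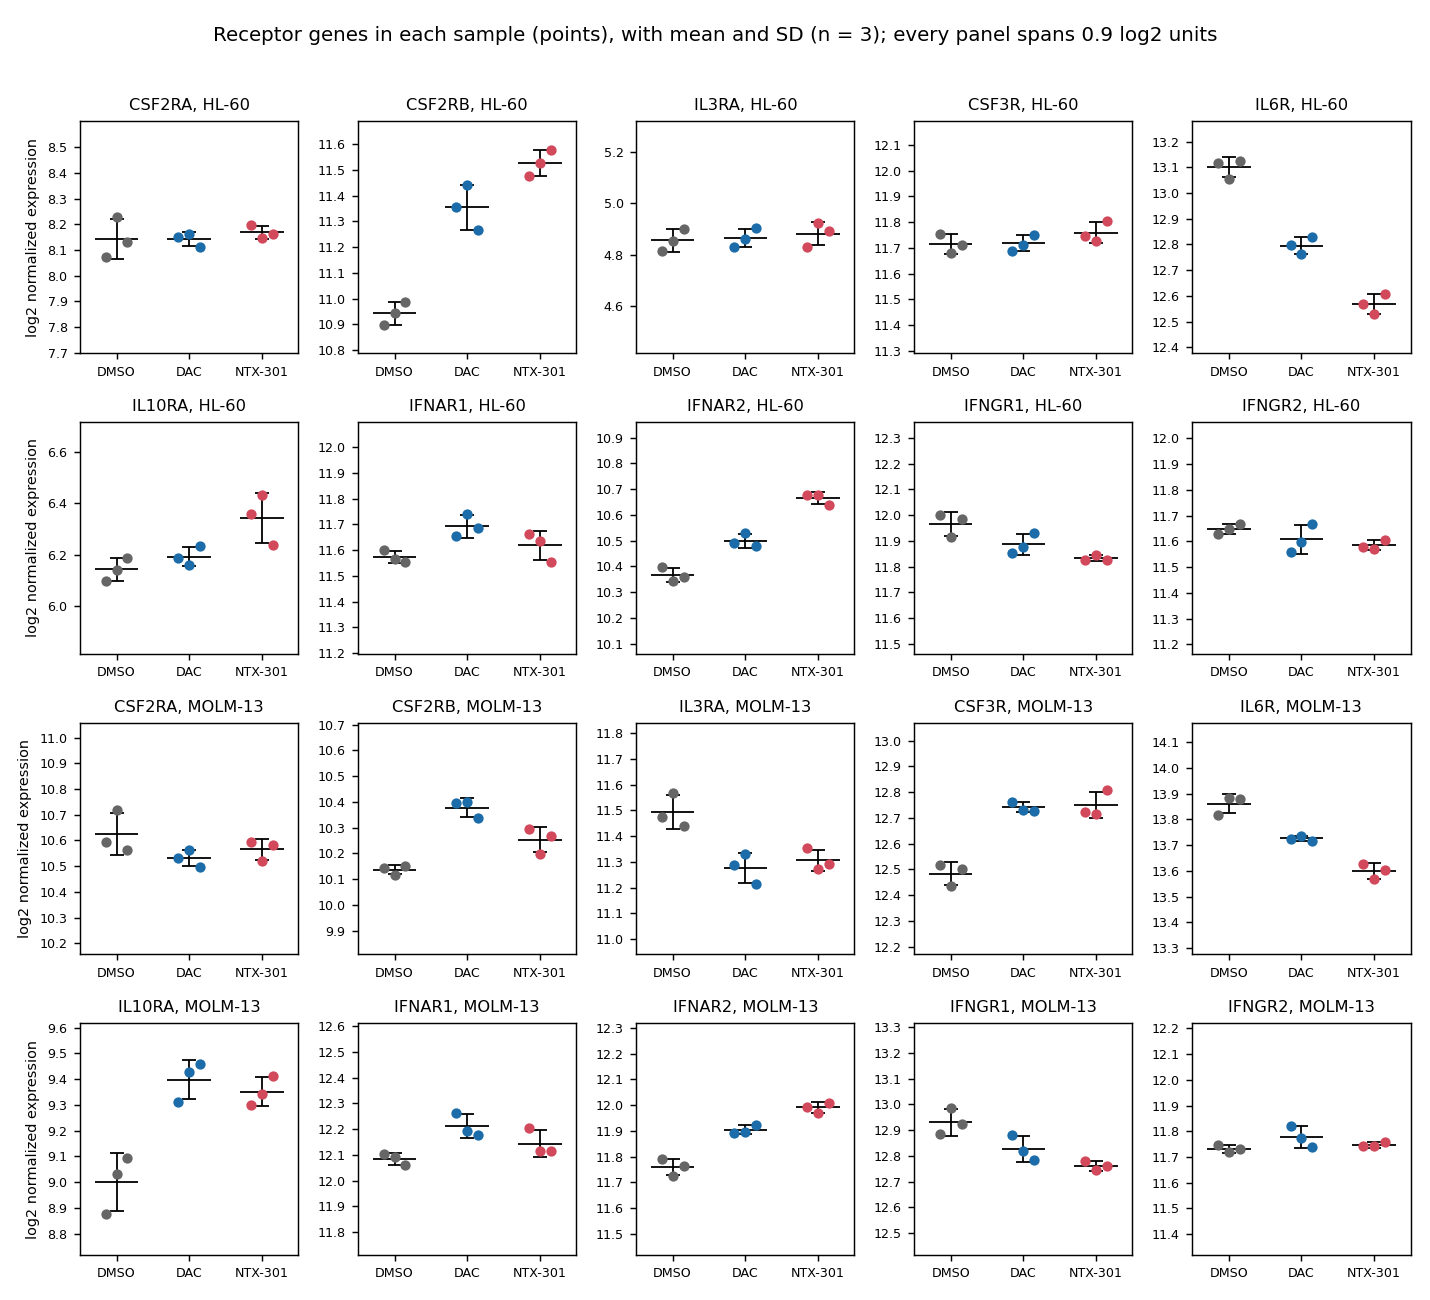
Deposited log2 normalized expression of the 10 receptor genes in every sample of HL-60 (upper 2 rows) and MOLM-13 (lower 2 rows); points are samples, bars the mean and SD of 3 replicates, and each panel spans 0.9 log2 units. CSF2RB and IL6R of HL-60 separate all 3 groups, IL3RA and CSF3R of HL-60 show overlapping groups, and the lowest panels in level are IL3RA and IL10RA of HL-60.

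CSF2RB (NCBI Gene 1439), the beta chain shared by the GM-CSF and IL-3 receptors, had the largest rise of the 10 genes. In HL-60 the DMSO samples stood at 10.90, 10.94 and 10.99, the DAC samples at 11.35, 11.44 and 11.26, and the NTX-301 samples at 11.48, 11.53 and 11.58. Every treated sample lay above every DMSO sample, and every NTX-301 sample above every DAC sample. The rise was 0.41 with DAC (SE 0.041, 1.33-fold, limma adjusted p = 8.5e-06) and 0.58 with NTX-301 (SE 0.041, 1.499-fold, limma adjusted p = 1.06e-07). NTX-301 exceeded DAC by 0.17 (95% interval 0.084 to 0.26, limma adjusted p = 0.00593). These changes lay at the 99.1 and 99.3 percentiles of all HL-60 genes for DAC and NTX-301.

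In MOLM-13 CSF2RB stood at 10.14, 10.12 and 10.15 in DMSO, at 10.40, 10.40 and 10.34 in DAC and at 10.29, 10.20 and 10.27 in NTX-301. The 3 groups did not overlap here either, but the order of the drugs was the other way round, with DAC highest. The rise was 0.24 with DAC (SE 0.037, limma adjusted p = 0.000399) and 0.12 with NTX-301 (SE 0.037, limma adjusted p = 0.0236). The NTX-301 call was lost when samples were centred on their medians (0.086, adjusted p = 0.0868), under quantile normalization (0.10, adjusted p = 0.0536), and without DMSO replicate 2 (0.11), NTX-301 replicate 1 (0.096) or NTX-301 replicate 3 (0.11). NTX-301 stood 0.12 below DAC (95% interval of the difference -0.21 to -0.043), which missed the threshold in limma (adjusted p = 0.0668) and passed it without the mean-variance trend (adjusted p = 0.0469).

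The partner alpha chains moved differently from CSF2RB. CSF2RA (NCBI Gene 1438), which binds GM-CSF, ranged from 8.07 to 8.23 in HL-60 DMSO samples, from 8.11 to 8.16 in DAC and from 8.15 to 8.20 in NTX-301, with all groups overlapping. Its change was -0.0014 with DAC (95% interval -0.093 to 0.090) and 0.025 with NTX-301 (95% interval -0.066 to 0.12), and the sign of both depended on the scaling or on which samples were kept. In MOLM-13 it ranged from 10.56 to 10.72 in DMSO, 10.50 to 10.56 in DAC and 10.52 to 10.60 in NTX-301. The change there was -0.094 with DAC (limma adjusted p = 0.111), which passed the test when samples were centred on their medians (-0.13, adjusted p = 0.0229), and -0.059 with NTX-301 (limma adjusted p = 0.291).

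IL3RA (NCBI Gene 3563), the alpha chain that binds IL-3, fell in MOLM-13. Its values there were 11.48, 11.57 and 11.44 in DMSO, 11.29, 11.33 and 11.22 in DAC and 11.35, 11.27 and 11.29 in NTX-301. All treated samples lay below all DMSO samples, and the drug groups overlapped. IL3RA fell by 0.22 with DAC (SE 0.041, limma adjusted p = 0.00151), to a level 0.860 times that of DMSO, and NTX-301 gave a change of -0.19 (SE 0.041, limma adjusted p = 0.00274). Thus in MOLM-13 the IL-3-binding chain fell while the shared CSF2RB chain rose, with both drugs. The CSF2RB call with NTX-301 was lost under other scalings and without some single samples, as given above.

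In HL-60 IL3RA was among the lower genes, at 4.81 to 4.90 in DMSO, 4.83 to 4.90 in DAC and 4.83 to 4.92 in NTX-301, near the 18th percentile of level. The groups overlapped, with changes of 0.0088 (limma adjusted p = 0.859) and 0.026 (limma adjusted p = 0.514). Values at this level spread little over samples, as given above. CSF2RA and IL3RA neighbour each other in the region that the X and Y chromosomes share. For CSF2RA 64 transcript entries are listed and for IL3RA 10, and 26 and 2 of these entries are themselves second, duplicate copies. How reads were split between the copies is not given in the sources used here, so the levels of both genes are uncertain.

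CSF3R (NCBI Gene 1441), the G-CSF receptor, rose with DAC and with NTX-301 in MOLM-13. Its values were 12.52, 12.43 and 12.50 in DMSO, 12.76, 12.73 and 12.73 in DAC and 12.72, 12.72 and 12.81 in NTX-301. All treated samples lay above all DMSO samples. The rise was 0.26 with DAC (SE 0.031, 1.19-fold, limma adjusted p = 7.58e-05) and 0.26 with NTX-301 (SE 0.031, 1.20-fold, limma adjusted p = 3.9e-05), and the drugs differed by 0.0075 (95% interval -0.060 to 0.076). In HL-60 it stayed between 11.68 and 11.80 in all 9 samples, with overlapping groups. Its change there was 0.0027 with DAC (95% interval -0.060 to 0.065) and 0.044 with NTX-301 (95% interval -0.018 to 0.11), neither past the threshold.

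IL6R (NCBI Gene 3570), the chain that binds IL-6, showed the same order of groups in both lines. In HL-60 it stood at 13.12, 13.06 and 13.13 in DMSO, at 12.80, 12.76 and 12.83 in DAC and at 12.57, 12.53 and 12.61 in NTX-301. In MOLM-13 it stood at 13.82, 13.88 and 13.88 in DMSO, at 13.72, 13.74 and 13.72 in DAC and at 13.63, 13.57 and 13.60 in NTX-301. DMSO was highest and NTX-301 lowest in each line, and no 2 groups overlapped.

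In HL-60 the IL6R change was -0.30 with DAC (SE 0.027, limma adjusted p = 2.76e-06), and it was -0.53 with NTX-301 (SE 0.027, limma adjusted p = 4.26e-09). On the linear scale the level fell by 19.0% with DAC and fell by 30.7% with NTX-301, and the NTX-301 change was at the 0.147 percentile of all genes. The MOLM-13 change was -0.13 with DAC (SE 0.025, limma adjusted p = 0.0014), and it was -0.26 with NTX-301 (SE 0.025, limma adjusted p = 9.78e-06). NTX-301 samples were lower than DAC samples by -0.23 in HL-60 (limma adjusted p = 2.49e-05) and -0.13 in MOLM-13 (limma adjusted p = 0.0131). Under quantile normalization the DAC call in MOLM-13 was lost (-0.036, adjusted p = 0.202) and the NTX-301 change there became -0.15 (adjusted p = 0.000198), and the MOLM-13 difference between drugs was lost without NTX-301 replicate 2 (-0.11, adjusted p = 0.0652) or replicate 3 (-0.13, adjusted p = 0.0524).

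The partner chain IL6ST, which carries the IL-6 signal into the cell, also fell in HL-60. It stood at 9.58 to 9.61 in DMSO, 9.44 to 9.49 in DAC and 9.20 to 9.27 in NTX-301, without overlap. The fall was -0.12 with DAC (limma adjusted p = 0.021), a call lost without DMSO replicate 3 (-0.11) or DAC replicate 1 (-0.10), and -0.36 with NTX-301 (limma adjusted p = 1.39e-06). In MOLM-13, where it was looked up after its HL-60 values were seen, its changes were 0.051 and 0.030 and passed no test. HL-60 files also list IL6R-AS1, an RNA antisense to IL6R, at a mean of 2.99, far below IL6R on a scale whose relation to gene length is not given. The libraries were stranded, but whether counting used the strand is not given in the sources used here.

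IL10RA (NCBI Gene 3587), the chain that binds IL-10, had the largest rise of the 10 genes in MOLM-13. It stood at 8.88, 9.03 and 9.09 in DMSO, at 9.31, 9.43 and 9.46 in DAC and at 9.30, 9.34 and 9.41 in NTX-301. Every treated sample lay above every DMSO sample, and the drug groups overlapped. The rise was 0.40 with DAC (SE 0.063, 1.32-fold, limma adjusted p = 0.000455) and 0.35 with NTX-301 (SE 0.063, 1.27-fold, limma adjusted p = 0.000753). NTX-301 and DAC differed by -0.047, with a 95% interval of -0.18 to 0.090.

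In HL-60 IL10RA stood lower, at 6.10, 6.14 and 6.19 in DMSO, 6.19, 6.16 and 6.23 in DAC and 6.36, 6.43 and 6.24 in NTX-301. Only the NTX-301 samples lay above all DMSO samples. The change was 0.050 with DAC (95% interval -0.046 to 0.15) and a rise of 0.20 with NTX-301 (SE 0.045, limma adjusted p = 0.00269). NTX-301 exceeded DAC by 0.15 (limma adjusted p = 0.0204), a call lost on leaving out DAC replicate 1 (0.15), DAC replicate 2 (0.13), NTX-301 replicate 1 (0.14) or NTX-301 replicate 2 (0.10). Its partner IL10RB, looked up after the values were seen, rose by 0.17 with NTX-301 in HL-60 (limma adjusted p = 0.00211) and had changes that missed the threshold with DAC in HL-60 (-0.015) and with DAC (0.028) and NTX-301 (0.063) in MOLM-13.

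The chains of the type I interferon receptor differed in their response to NTX-301. IFNAR2 (NCBI Gene 3455), the chain with the higher affinity for interferon, stood at 10.40, 10.34 and 10.36 in HL-60 DMSO samples, 10.49, 10.53 and 10.48 in DAC and 10.68, 10.68 and 10.64 in NTX-301. In MOLM-13 it stood at 11.79, 11.73 and 11.76 in DMSO, 11.89, 11.90 and 11.92 in DAC and 11.99, 11.97 and 12.01 in NTX-301. NTX-301 was highest, DAC next and DMSO lowest in each line, and no 2 groups overlapped, the mirror image of the order of IL6R. The IFNAR2 rise in HL-60 was 0.13 with DAC (SE 0.029, limma adjusted p = 0.00433) and 0.30 with NTX-301 (SE 0.029, limma adjusted p = 2.01e-06). In MOLM-13 the rises were 0.15 (SE 0.026, limma adjusted p = 0.00114) and 0.23 (SE 0.026, limma adjusted p = 2.97e-05). NTX-301 exceeded DAC by 0.17 in HL-60 (limma adjusted p = 0.000585) and by 0.087 in MOLM-13 (95% interval 0.029 to 0.14, limma adjusted p = 0.0696).

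IFNAR1 (NCBI Gene 3454), the other chain, passed the test with DAC and not with NTX-301. Its HL-60 values were 11.60, 11.57 and 11.56 in DMSO, 11.65, 11.74 and 11.68 in DAC and 11.66, 11.64 and 11.56 in NTX-301. Its MOLM-13 values were 12.10, 12.09 and 12.06 in DMSO, 12.26, 12.19 and 12.18 in DAC and 12.20, 12.11 and 12.11 in NTX-301. DAC samples lay above DMSO samples in both lines, and in HL-60 the NTX-301 samples overlapped both groups.

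The IFNAR1 rise with DAC was 0.12 in HL-60 (SE 0.032, limma adjusted p = 0.0146) and 0.13 in MOLM-13 (SE 0.033, limma adjusted p = 0.00983). With NTX-301 the changes were 0.044 (95% interval -0.024 to 0.11) and 0.059 (95% interval -0.012 to 0.13), and the difference between the drugs passed the test in neither line (-0.075, limma adjusted p = 0.0935, and -0.067, limma adjusted p = 0.246). The HL-60 call with DAC was lost without DAC replicate 2 (0.095, adjusted p = 0.0688) or DMSO replicate 3 (0.11, adjusted p = 0.0515), and the MOLM-13 call when samples were centred on their medians (0.090, adjusted p = 0.0528). Under quantile normalization the MOLM-13 change with NTX-301 passed the test (0.13, adjusted p = 0.00541).

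IFNGR1 (NCBI Gene 3459), the chain that binds interferon gamma, fell with NTX-301. It stood at 11.999, 11.91 and 11.98 in HL-60 DMSO samples, 11.85, 11.88 and 11.93 in DAC and 11.82, 11.84 and 11.83 in NTX-301. In MOLM-13 it stood at 12.88, 12.99 and 12.92 in DMSO, 12.88, 12.82 and 12.78 in DAC and 12.78, 12.74 and 12.76 in NTX-301. The NTX-301 samples lay below all DMSO samples and all DAC samples in each line.

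With NTX-301 IFNGR1 fell by 0.13 in HL-60 (SE 0.028, limma adjusted p = 0.00187) and by 0.17 in MOLM-13 (SE 0.032, limma adjusted p = 0.00118). With DAC the change was -0.079 in HL-60 (limma adjusted p = 0.057) and -0.10 in MOLM-13 (limma adjusted p = 0.0251). Both DAC results depended on the setting. The HL-60 change passed the test without DAC replicate 3 (-0.10) or DMSO replicate 2 (-0.11) and with genes of mean 5 or more (adjusted p = 0.04), and the MOLM-13 call was lost without DAC replicate 2 (-0.099), DAC replicate 3 (-0.082), DMSO replicate 2 (-0.076) or DMSO replicate 3 (-0.11), with only the groups compared in the fit (adjusted p = 0.0512) and under quantile normalization (-0.022), which also took the NTX-301 change in MOLM-13 to -0.073 (adjusted p = 0.0404). Centring the samples made the HL-60 difference between NTX-301 and DAC pass the test (-0.083, adjusted p = 0.0399), which it did not as deposited (-0.054, limma adjusted p = 0.175).

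IFNGR2 (NCBI Gene 3460), the signalling chain that pairs with IFNGR1, passed the test in no comparison. It ranged from 11.63 to 11.67 in HL-60 DMSO samples, 11.56 to 11.67 in DAC and 11.57 to 11.61 in NTX-301. In MOLM-13 it ranged from 11.72 to 11.75, from 11.74 to 11.82 and from 11.74 to 11.76. NTX-301 samples of HL-60 lay below all DMSO samples, with a change of -0.062 (limma adjusted p = 0.111) that passed the test once samples were centred on their medians (-0.090, adjusted p = 0.0238). In MOLM-13 the changes of 0.046 and 0.016 passed it under quantile normalization (0.095 and 0.082). IFNAR2, IFNAR1 and IFNGR2 lie close together on chromosome 21 with IL10RB, where the RefSeq annotation also lists a joined transcript, IFNAR2-IL10RB, so reads at that junction may be shared.

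**Figure D2:**
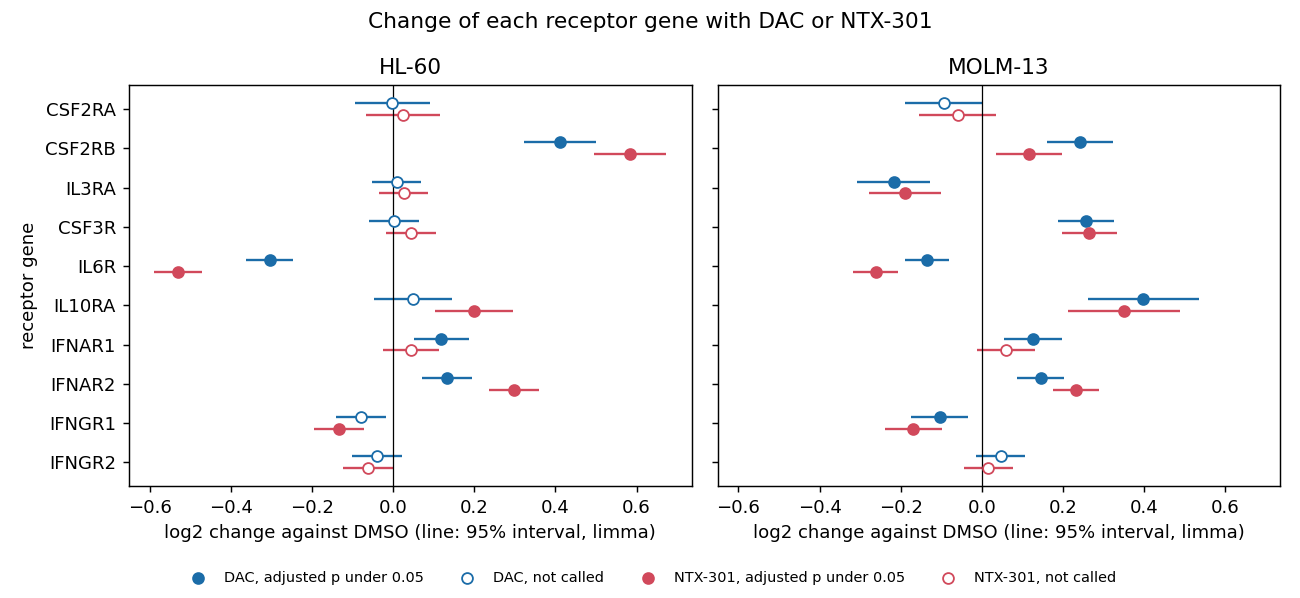
Log2 change of each receptor gene against DMSO with DAC (blue) or NTX-301 (red) in HL-60 (left) and MOLM-13 (right); lines are limma's 95% intervals and filled points have an adjusted p under 0.05. In HL-60 the intervals of CSF2RB and IL6R lie farthest from 0, and in MOLM-13 CSF3R and IL10RA lie clear of 0 on the higher side and IL3RA and IL6R on the lower.

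NTX-301 and DAC were compared for 10 genes in each line, at concentrations that may not match. In HL-60, 4 of the 10 differed, where 30.4% of all genes did (15.4% higher and 15.0% lower with NTX-301): CSF2RB, IFNAR2 and IL10RA were higher with NTX-301 and IL6R was lower. In MOLM-13 only IL6R differed, lower with NTX-301, where 7.42% of all genes did (3.01% higher and 4.41% lower). The NTX-301 and DAC groups did not overlap for 5 receptor genes of HL-60 (44.4% of all genes) and 4 of MOLM-13 (27.3% of all genes). The widest 95% interval of a difference that missed the threshold in MOLM-13 was that of IL10RA, given above, so differences of that size cannot be told from none.

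The drug effects were next compared between the lines, as the MOLM-13 effect minus the HL-60 effect. A constant offset between the tables of the lines cancels in this difference, but a spread that changes with the level of a gene does not. The DAC effect differed for 5 of the 10 genes, where 30.0% of all 15474 genes tested in both lines did, and the NTX-301 effect for 4, against 40.0%. CSF2RB rose less in MOLM-13, by -0.17 with DAC (limma adjusted p = 0.0302), and the NTX-301 difference was -0.47 (limma adjusted p = 3.02e-06). IL6R fell less there, with differences of 0.17 (limma adjusted p = 0.00194), or 0.26 under quantile normalization, and 0.27 (limma adjusted p = 1.23e-05).

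CSF3R had a higher effect in MOLM-13, by 0.25 with DAC (limma adjusted p = 0.000186) and 0.22 with NTX-301 (limma adjusted p = 0.000457). IL3RA had a lower one, by -0.23 (limma adjusted p = 0.0131) and -0.22 (limma adjusted p = 0.0129), both lost under quantile normalization (-0.17, adjusted p = 0.0525, and -0.14, adjusted p = 0.0951), and its HL-60 values lie at the low end of the scale. IL10RA differed with DAC, by 0.35 (limma adjusted p = 0.00389), and its difference with NTX-301 was 0.15 (95% interval -0.025 to 0.33, limma adjusted p = 0.166). Its values averaged 6.23 in HL-60 and 9.25 in MOLM-13. In HL-60 the median range over the 9 samples was 0.16 for genes averaging 5 to 8 and 0.234 for those averaging 8 to 10. The MOLM-13 figures were 0.234 and 0.289, so the range differed by line as well as by level. These ranges include the drug effects. The part of level in the IL10RA difference was not tested. The DAC difference of CSF2RB lost its call in 6 of 18 fits that left out a sample, those without HL-60 DAC replicate 1 (adjusted p = 0.0538) or 2 (0.0934), HL-60 DMSO replicate 1 (0.0764) or 2 (0.0512), MOLM-13 DAC replicate 3 (0.0768) or MOLM-13 DMSO replicate 3 (0.0587). For the 4 interferon receptor chains no difference between the lines passed the test as deposited, and the 95% interval of the difference, not adjusted for the number of genes, ran from 0.0047 to 0.17 for IFNGR2 with DAC (limma adjusted p = 0.102) and from -0.14 to 0.0091 for IFNAR2 with NTX-301 (limma adjusted p = 0.154). Under quantile normalization IFNGR2 had a higher effect in MOLM-13 with each drug (0.12, adjusted p = 0.0188, and 0.13, adjusted p = 0.0107), and its DAC difference also passed without HL-60 DAC replicate 3 (0.12, adjusted p = 0.0262).

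**Figure D3:**
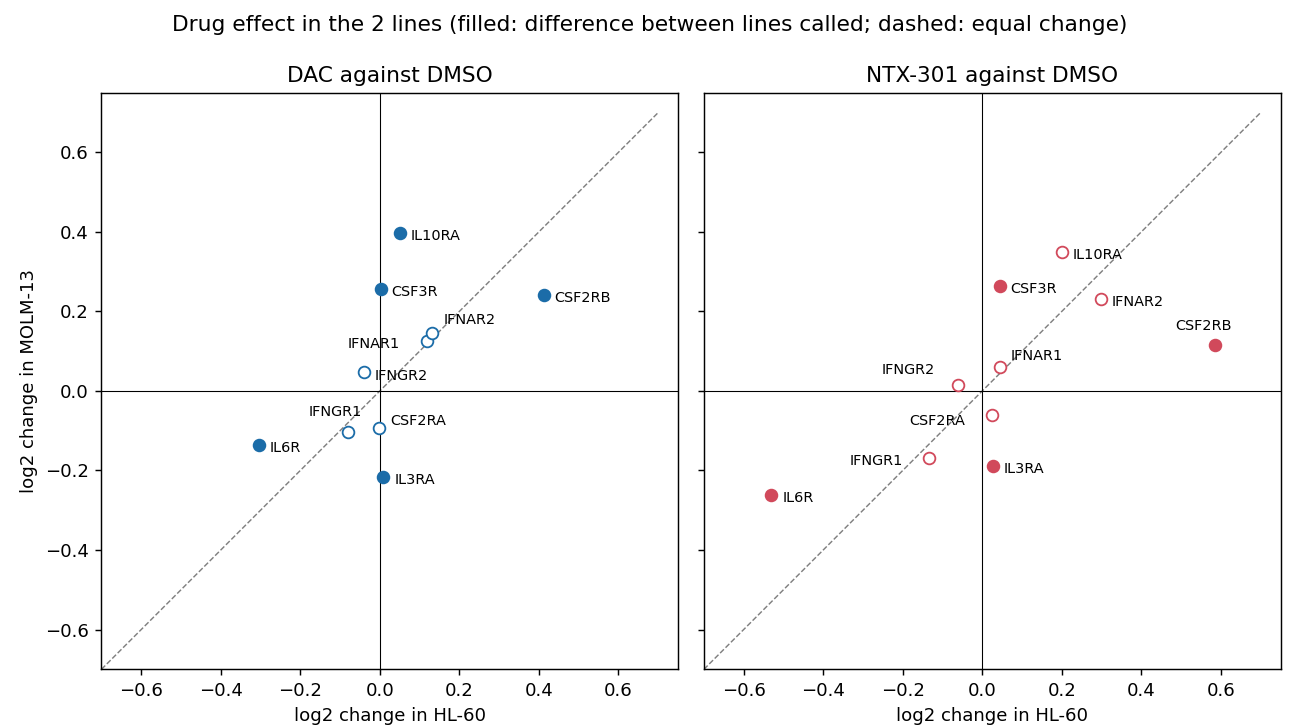
Log2 change against DMSO in HL-60 (horizontal) and in MOLM-13 (vertical) of the 10 receptor genes, for DAC (left) and NTX-301 (right); filled points are genes whose effect differed between the lines with an adjusted p under 0.05, and the dashed line marks an equal change. CSF2RB lies to the right of the line, CSF3R and IL10RA above it on the DAC side, and IFNAR2 near it with both drugs.

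Levels in DMSO are given side by side for the lines, without a test. IL3RA had a mean of 4.86 in HL-60 and 11.49 in MOLM-13, IL10RA 6.14 and 9.001, and CSF2RA 8.14 and 10.63. CSF2RB ran the other way, at 10.94 in HL-60 and 10.14 in MOLM-13. The other 6 genes had the higher mean in the MOLM-13 table. The median over all genes was also higher there, at 9.79 in the DMSO samples against 9.52 to 9.53 in HL-60. Of these 6 genes IFNGR2 differed least, at 11.65 in HL-60 and 11.73 in MOLM-13. Its percentile of level was 75.5 in HL-60 and 73.1 in MOLM-13.

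The cytokines themselves were looked for next. None of the 12 ligand genes, among them CSF2 (GM-CSF), CSF3 (G-CSF), IL3, IL6, IL10 and IFNG, is listed in the tables of either line, so no value can be given for them. The signalling partners were listed for 12 of 14 genes (HL-60) and 13 of 14 (MOLM-13). In HL-60, 2 rose and 3 fell with DAC, where 11.6% of all genes rose and 12.6% fell, and 6 rose and 3 fell with NTX-301, where 18.3% rose and 19.2% fell. In MOLM-13, 7 rose and none fell with DAC, beside 15.4% and 21.2% of all genes, and 6 rose and none fell with NTX-301, beside 20.3% and 24.8%.

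STAT5A, a transcription factor that CSF2RB-containing receptors activate, had the largest rise of the signalling partners in HL-60. It stood at 8.28 to 8.31 in DMSO, 8.69 to 8.77 in DAC and 8.90 to 8.999 in NTX-301, without overlap. Its rise was 0.43 with DAC (limma adjusted p = 4.27e-06) and 0.67 with NTX-301 (limma adjusted p = 2.18e-08), the same order of groups as CSF2RB. STAT6, which IL-4 receptors activate, fell in HL-60 (-0.14 and -0.26) and rose in MOLM-13 (0.14 and 0.12). In MOLM-13, STAT2, a transcription factor downstream of IFNAR1 and IFNAR2, rose by 0.16 and 0.22, and JAK3, the kinase of receptors with the common gamma chain, by 0.31 and 0.42 (DAC, then NTX-301). Quantile normalization took the STAT6 rises in MOLM-13 to 0.22 and 0.23.

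Inhibitors of receptor signalling moved both ways. Of 19 tested in each line, DAC raised 2 and lowered 1 in HL-60, and it raised 6 and lowered 4 in MOLM-13. NTX-301 raised 5 in each line, and lowered 4 in HL-60 and 5 in MOLM-13. Of all HL-60 genes, 11.6% rose and 12.6% fell with DAC, and 18.3% and 19.2% with NTX-301. The shares for MOLM-13 were 15.4% and 21.2% with DAC, then 20.3% and 24.8% with NTX-301. CBL, a ubiquitin ligase that takes active receptors off the surface, fell by 0.34 with NTX-301 in HL-60, and PTPN6, a phosphatase of myeloid receptors, fell by 0.21. SH2B3, an adaptor that dampens JAK2, rose by 0.13 with DAC and by 0.27 with NTX-301 there. In MOLM-13, SOCS2 fell by 0.39 and by 0.18 while SOCS1 rose by 0.28 and 0.38 and PIAS2 by 0.17 and 0.22. Without MOLM-13 DMSO replicate 2, 5 of these inhibitors were called with DAC in place of 10, and quantile normalization took the SOCS1 rise with DAC to 0.18 and the SOCS2 change with NTX-301 to -0.077.

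Receptors for other cytokines, from IL-4 to M-CSF, were counted next. In HL-60, DAC raised 4 and lowered 4 of 18, and NTX-301 raised 11 and lowered 3, beside all-gene shares of 11.6% higher and 12.6% lower with DAC and 18.3% and 19.2% with NTX-301. In MOLM-13, DAC raised 13 of 22 and lowered none (all genes 15.4% and 21.2%), and NTX-301 raised 11 and lowered 1 (all genes 20.3% and 24.8%). IL18R1, a receptor chain for IL-18, rose by 0.36 with DAC and by 0.71 with NTX-301 in HL-60, IL4R by 0.27 and 0.60, and IL17RA by 0.11 and 0.27. CSF1R, the receptor for M-CSF on monocytes and macrophages, rose by 0.51 and 0.39 in MOLM-13, IL21R by 0.54 and 0.47, and IL13RA1 by 0.27 and 0.14.

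Genes that interferon switches on, downstream of IFNAR1 and IFNAR2 or of the IFNGR chains, were also counted. Of 20 tested in HL-60, DAC raised 4 and lowered 2 (all genes 11.6% and 12.6%), and NTX-301 raised 12 and lowered none (all genes 18.3% and 19.2%). Of 23 tested in MOLM-13, DAC raised 12 (all genes 15.4%) and NTX-301 raised 11 (all genes 20.3%), and none fell (all genes 21.2% and 24.8%). The antiviral genes OAS3, IFITM1 and HERC5 rose with NTX-301 in HL-60 by 0.54, 0.44 and 0.49, while with DAC HERC5 rose by 0.39 and OAS3 and IFITM1 had changes of 0.048 and 0.077. In MOLM-13, GBP2 rose by 0.29 and 0.52, IFI6 by 0.44 and 0.41 and MX2 by 0.37 and 0.22. The DAC count in HL-60 was 3 in place of 6 without DAC replicate 2, the DAC count in MOLM-13 was 7 in place of 12 under quantile normalization, and the DAC call of GBP2 was then lost (0.19).

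Transcription factors of myeloid cells, which act on receptor genes, made up the last list. Of 10 in HL-60, DAC raised 3 and lowered 1, where 24.2% of all genes were called, and NTX-301 raised 4 and lowered 4, where 37.4% were. Of 11 in MOLM-13, DAC raised 7 and lowered 2, a total of 9 that became 5 without DAC replicate 2, DAC replicate 3 or DMSO replicate 2, and NTX-301 raised 3 and lowered 2, where 36.6% and 45.1% of all genes were called. GATA2, a factor of blood stem and mast cells, stood at 10.93 to 11.02 in HL-60 DMSO samples, 11.69 to 11.79 in DAC and 12.29 to 12.32 in NTX-301, rises of 0.78 and 1.33. MYB rose by 0.27 and 0.21 in HL-60, and SPI1, which encodes PU.1, fell by 0.32 with NTX-301. In MOLM-13, IRF8, a factor of monocyte and dendritic cell fate, fell by 0.22 and by 0.46, while CEBPE, a factor of late neutrophil maturation, rose by 0.66 and 0.30 and RUNX1 by 0.23 and 0.25. Quantile normalization took the IRF8 change with DAC to -0.12.

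**Figure D4:**
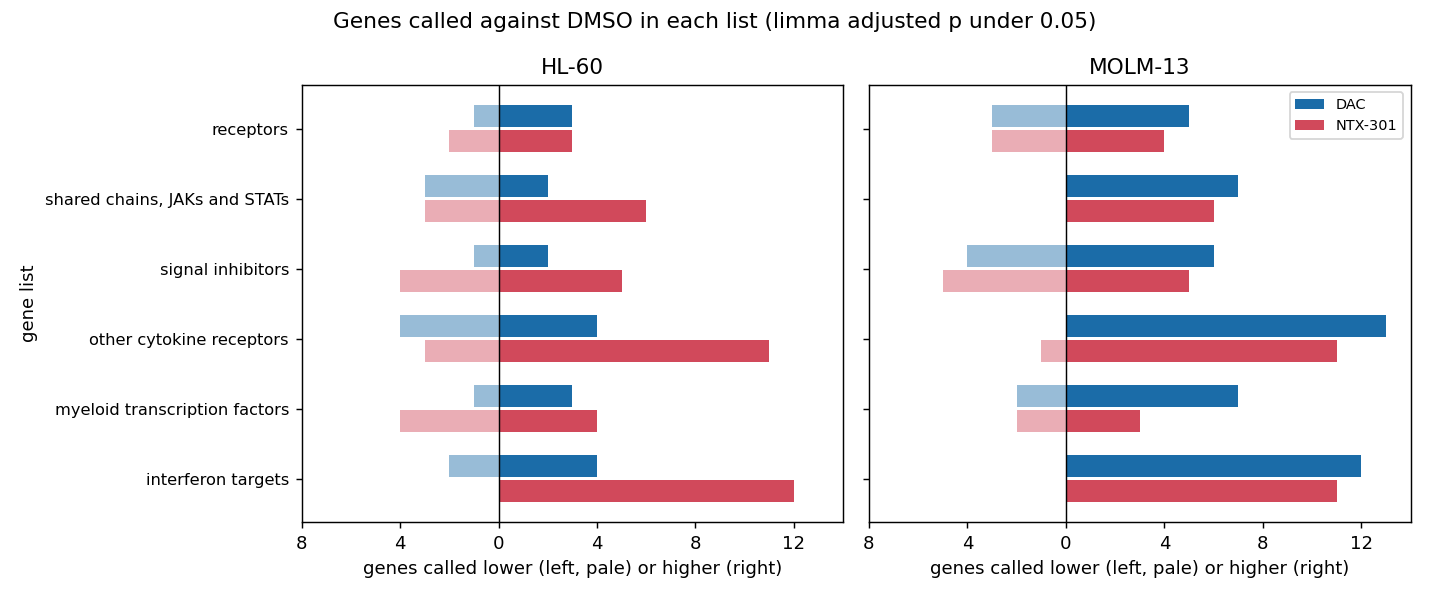
Number of genes called higher (right) or lower (left, pale) against DMSO with DAC (blue) or NTX-301 (red) in the receptor list and 5 related lists, by limma adjusted p under 0.05. In MOLM-13 no signalling partner and no interferon target was called lower, and in HL-60 the counts of other cytokine receptors and interferon targets called higher were 4 and 4 with DAC and 11 and 12 with NTX-301.

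The median change of the lists stood beside medians near 0 over all genes. With NTX-301 in HL-60 it was 0.079 for signalling partners, -0.013 for inhibitors, 0.12 for other cytokine receptors, 0.0081 for transcription factors and 0.099 for interferon targets. With DAC in MOLM-13 it was 0.11, -0.010, 0.16, 0.16 and 0.13 in the same order. With DAC in HL-60 it was 0.045, 0.0018, 0.023, -0.015 and 0.037. The MOLM-13 medians with NTX-301 were 0.063, -0.035, 0.12, 0.057 and 0.10.

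Markers of maturation and of other cell types moved alongside the receptors. In MOLM-13 the summed level of the 5 listed monocyte markers was 12.9 to 13.0 in DMSO, 13.35 to 13.42 in DAC and 13.23 to 13.29 in NTX-301 (log2 of the sum), the same order of group means as IL10RA. Of the 5, DAC raised 3 and lowered 0 (all genes 15.4% and 21.2%), and NTX-301 raised 3 and lowered 1 (all genes 20.3% and 24.8%). CD68 stood highest, with group means of 11.56, 12.24 and 12.02, while those of FCGR1A were 11.50, 11.46 and 11.37. In HL-60 the monocyte sum, over 4 markers, was 9.79 to 9.88, 9.97 to 10.01 and 9.91 to 10.01. FCGR1A stood highest there, with group means of 9.21, 9.38 and 9.16. Of the 4, DAC raised 2 and lowered 0 (all genes 11.6% and 12.6%), and NTX-301 raised 3 and lowered 0 (all genes 18.3% and 19.2%). The summed myeloid markers of HL-60 were 19.06 to 19.15 in DMSO, 19.05 in DAC and 18.70 to 18.73 in NTX-301. Most of this sum was MPO, with group means of 18.71, 18.64 and 18.36. Of the 10, DAC raised 3 and lowered 3 (all genes 11.6% and 12.6%), and NTX-301 raised 2 and lowered 7 (all genes 18.3% and 19.2%). The 9 listed in MOLM-13 summed to 18.27 to 18.29, 18.63 to 18.67 and 18.28 to 18.39. PRTN3 and LYZ stood highest there, with group means of 16.89, 17.05 and 16.82 and of 16.47, 17.25 and 16.59. Of the 9, DAC raised 6 and lowered 0 (all genes 15.4% and 21.2%), and NTX-301 raised 3 and lowered 1 (all genes 20.3% and 24.8%). The 4 listed epithelial or stromal markers of MOLM-13 summed to 13.12 to 13.16, 13.35 to 13.38 and 13.22 to 13.31, while EPCAM and COL1A2 were not listed. Nearly all of this sum was PECAM1, with a DMSO mean of 13.01, against 9.33 for KRT18, 5.82 for COL1A1 and 5.15 for KRT8. It is therefore not read as a sign of epithelial or stromal cells. The 2 listed lymphoid markers summed to 8.16 to 8.25, 8.32 to 8.35 and 8.49 to 8.61 in HL-60 and to 10.40 to 10.52, 10.69 to 10.76 and 10.79 to 10.84 in MOLM-13. The part of these shifts in the receptor changes was not tested, and in such bulk RNA fewer cells of a type and less RNA per cell cannot be told apart.

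Genes with a course like that of the most changed of the 10 receptors were picked as a description, over the 9 samples of a line and among genes at or above the line's median level. For CSF2RB in HL-60 these were LMO4 (Pearson r = 0.996), AKAP1 (0.992) and CCDC88B (0.991), of 8554 genes. Their rises with DAC and NTX-301 were 0.16 and 0.21 for LMO4, 0.13 and 0.20 for AKAP1 and 0.27 and 0.39 for CCDC88B. The likeness did not hold throughout MOLM-13, where LMO4 changed by -0.35 and 0.029, AKAP1 by -0.024 and -0.095 and CCDC88B by 0.43 and 0.39. For IL10RA in MOLM-13 they were SLC43A2 (r = 0.963), CSF1R (0.962) and the noncoding RNA TTN-AS1 (0.958), of 8738 genes. CSF1R rose by 0.51 with DAC and 0.39 with NTX-301, SLC43A2 by 0.40 and 0.33 and TTN-AS1 by 0.32 and 0.26. In HL-60 the changes were 0.083 and 0.42 for CSF1R, 0.11 and 0.38 for SLC43A2 and 0.97 and 0.0063 for TTN-AS1. The 9 samples share 3 groups and a normalization, and r was used to pick the genes.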

How the data were processed

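RNA of 18 samples was sequenced as stranded total RNA, per the labels' protocols. The submitters' processing notes name FastQC, Trimmomatic 0.38, HISAT2, StringTie and genome build hg19, without order or settings. The authors deposited 1 normalized log2 value per gene and sample, a unit read from the values; the normalization is not given in the sources used here. Depth was unknown, so the replicate spread alone gives the precision. The genes listed differ between lines and are the same within them, so each line was treated as normalized apart.

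From these values, genes reaching 1 on the linear scale in 3 or more samples entered the tests (17046 in HL-60, 17475 in MOLM-13, 15474 in both). limma 3.58.1 in R 4.3.3 (lmFit, eBayes with trend, two-sided) fitted the 9 samples of a line with a mean per group, 6 residual degrees of freedom, and Benjamini-Hochberg adjustment over all genes; threshold 0.05. Between lines, the interaction was fitted over 18 samples. The code was tested on simulated data. The members and lists were chosen with earlier results of these data known. All 10 receptors were named; of each list, per line, at most the 3 genes with the lowest adjusted p against DMSO; and the 3 genes most like the most changed receptor of a line. Alternatives were other scalings (median centring, quantile), filters (none, mean of 5 or more), no trend, only the groups compared, a replicate block, a minimum change of 0.2 and leaving out each sample; those for list genes were added after the lists were tested. Promoter windows, neighbours and the duplicate gene region come from RefSeq on GRCh38.p14, another build than that of the files.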

Additional observations from a re-analysis of the deposited data

Results flagged for a closer look

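Effects of a drug that differed between the lines in the interaction test are listed here, as the MOLM-13 change minus the HL-60 change on the log2 scale, each against DMSO. With DAC these were CSF2RB (-0.17), CSF3R (0.25), IL3RA (-0.23), IL6R (0.17) and IL10RA (0.35). With NTX-301 they were CSF2RB (-0.47), CSF3R (0.22), IL3RA (-0.22) and IL6R (0.27). Line and stated concentration cannot be told apart in any of these. As given above, the CSF2RB difference with DAC lost its call without some single samples. The IL3RA difference lost its call under quantile normalization with each drug.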

How the results depend on the processing

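Of 1535 re-fits of receptor changes, 1443 kept direction and side of the threshold, 46 lost the call, 14 gained it and 32 changed sign. No change that was called as deposited changed sign. Of 935 re-fits of the 55 named list-gene changes, 922 kept both and 13 lost the call. With a minimum change of 0.2, the receptor counts fell to 2 (DAC), 3 (NTX-301) and 1 (NTX-301 against DAC) in HL-60, to 4, 4 and 0 in MOLM-13, and to 3 for the DAC effect between lines, and the counts over lists and over all genes fell by more than 1.5 times as well. Without the mean-variance trend, 2 receptors differed between NTX-301 and DAC in MOLM-13. Leaving out a sample gave 0 to 1 there, 0 without NTX-301 replicate 2 or 3. Under quantile normalization 8 of the signalling partners, in place of 5, were called with DAC in HL-60.

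Sign changes all concerned differences near 0. Centring gave CSF2RA -0.0026 (NTX-301 against DAC, HL-60) and -0.0032 (NTX-301, HL-60), IL3RA -0.012 (NTX-301 against DAC, HL-60) and -0.0019 (NTX-301, HL-60), IFNGR2 -0.014 (NTX-301, MOLM-13), and between lines with DAC IFNAR1 -0.030 and IFNAR2 -0.025. Quantile normalization gave CSF2RA -0.031 (NTX-301, HL-60), IL3RA -0.0040 (DAC, HL-60), and between lines IFNGR1 0.053 (DAC) and 0.040 (NTX-301). Leaving out each sample in turn gave, in HL-60, CSF2RA -0.037 to 0.040 (DAC) and -0.010 to 0.066 (NTX-301), CSF3R -0.016 to 0.023 (DAC), IL3RA -0.013 to 0.031 (DAC) and -0.0031 to 0.043 (NTX-301 against DAC) and IFNGR2 -0.047 to 0.0079 (NTX-301 against DAC). In MOLM-13 it gave CSF3R -0.022 to 0.023 and IL3RA -0.0032 to 0.054 (NTX-301 against DAC). Between lines it gave IFNAR1 -0.019 to 0.032 (DAC) and -0.017 to 0.038 (NTX-301), IFNAR2 -0.0040 to 0.028 (DAC) and IFNGR1 -0.052 to 0.0034 (DAC). The cause was not tested.

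Over all genes, centring turned the split of higher to lower calls from 3115 and 3265 to 2310 and 5400 (NTX-301, HL-60), from 2622 and 2563 to 1818 and 4860 (NTX-301 against DAC, HL-60), from 2689 and 3705 to 1960 and 5731 (DAC, MOLM-13) and from 3543 and 4337 to 2735 and 5760 (NTX-301, MOLM-13). With replicate numbers as a block, the receptor counts were 4, 5 and 4 (HL-60) and 8, 7 and 1 (MOLM-13), as without it. Same-numbered samples correlated at -0.0565 to 0.118 (HL-60) and -0.16 to 0.11 (MOLM-13) in their deviations from group means, so the numbers were not taken to pair samples. Depth is unknown, and what it limits for low genes such as IL3RA in HL-60 was not tested.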
